A study of Mus musculus with 3 samples.

Results

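In this work 10 genes of glycolysis and lactate production were followed across the cell classes of mouse brain that carried a glioma. The genes were Slc2a1, Slc2a3, Hk2, Pfkl, Aldoa, Tpi1, Pgk1, Eno1, Pkm and Ldha, taken by symbol from the 31053 genes of the deposited tables. These 10 symbols filled 11 rows of the tables, because Aldoa was listed under 2 gene identifiers. The second Aldoa row, ENSMUSG00000114515, held 1 UMI in the cells used and was left out.

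The series profiled live cells sorted from tissue around the tumour injection site by droplet single-cell RNA sequencing, in which each RNA molecule is counted through a unique molecular identifier (UMI). All animals were female C57BL/6 mice, 6 to 8 weeks old by the labels, that received syngeneic brain tumor-initiating cells (BTICs). These BTICs came from a tumour of a mouse with mutations in Nf1 and Trp53, as the methods state, and all libraries share that source. The vehicle group received saline and the niacin group received niacin at 100 mg/kg each day by intraperitoneal injection, from day 7 until brains were taken at 4 weeks. There were 3 libraries, each from several pooled brains (4 per pool by the labels, which also give 5 control and 10 niacin mice). They are 1 vehicle library, Vehicle 2, and 2 niacin libraries, Niacin 1 and Niacin 2, so niacin was compared with vehicle without a test. With 1 against 2 libraries, the smallest p an exact permutation test can give is 0.333.

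Glycolysis splits glucose into pyruvate in the cytosol and yields ATP without oxygen. Glucose enters through facilitative transporters, is trapped by hexokinase, is committed by phosphofructokinase and then passes through a series of 3-carbon intermediates to pyruvate, which lactate dehydrogenase A reduces to lactate. Microglia, infiltrating myeloid cells and activated lymphocytes can raise this route when they are stimulated or short of oxygen, and many of its genes are known targets of hypoxia-inducible factor. That factor binds the core letters ACGTG or GCGTG in the promoters of its targets.

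For that reason 4 promoters are printed, those of the transporter Slc2a1, of Hk2, which catalyses the first step, of Pgk1 and of Ldha. Each is the 250 bases before a RefSeq start in GRCm38.p6, read 5′ to 3′ on the strand of the gene, with every ACGTG or GCGTG match on either strand in capitals.
Slc2a1, chr4:119108495-119108744, plus strand: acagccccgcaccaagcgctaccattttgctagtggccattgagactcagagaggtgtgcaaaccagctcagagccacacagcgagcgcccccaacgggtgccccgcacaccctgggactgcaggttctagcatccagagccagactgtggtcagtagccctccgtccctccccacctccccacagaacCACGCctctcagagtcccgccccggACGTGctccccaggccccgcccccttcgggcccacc
Hk2, chr6:82774455-82774704, minus strand: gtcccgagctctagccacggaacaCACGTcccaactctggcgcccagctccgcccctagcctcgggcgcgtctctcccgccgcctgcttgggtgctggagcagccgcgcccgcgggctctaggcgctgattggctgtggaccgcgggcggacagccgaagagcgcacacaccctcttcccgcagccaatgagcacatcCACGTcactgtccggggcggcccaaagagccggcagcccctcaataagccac
Pgk1, chrX:106186850-106187099, plus strand: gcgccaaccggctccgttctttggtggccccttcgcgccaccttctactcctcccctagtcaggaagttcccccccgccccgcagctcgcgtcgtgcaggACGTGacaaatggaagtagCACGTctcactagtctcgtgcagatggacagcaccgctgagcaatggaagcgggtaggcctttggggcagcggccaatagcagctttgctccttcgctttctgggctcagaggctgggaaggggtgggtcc
Ldha, chr7:46845554-46845803, plus strand: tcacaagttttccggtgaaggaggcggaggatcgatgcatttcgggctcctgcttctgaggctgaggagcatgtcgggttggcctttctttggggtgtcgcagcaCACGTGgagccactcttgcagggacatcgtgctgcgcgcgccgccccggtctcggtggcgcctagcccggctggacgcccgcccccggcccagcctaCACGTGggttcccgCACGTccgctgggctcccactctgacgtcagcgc

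The Slc2a1, Hk2 and Pgk1 windows each held 2 matches. In Pgk1 they lay 150 and 131 bases before the start, on opposite strands. The printed Ldha window held 5, of which 4 came from the palindrome CACGTG read on both strands at 2 places. It lay inside the annotated span of Ldha (GENCODE M21, chromosome 7, 46841475 to 46855627), before a start within that span. A second Ldha window, chr7:46846832-46847081, held 1 match. The bases that follow its start were found near the 5′ end of an annotated Ldha transcript, and those that follow the printed window were not. In all, 12 of the 15 RefSeq windows for 9 of the genes held at least 1 match, against 38.6% of 32851 windows of the same length over all genes. For the Eno1 windows and the Pkm window with a match, the bases after the start were likewise not found near the 5′ end of an annotated transcript. Some windows of Aldoa and of Eno1 overlapped, so the same letters were counted more than once. No Tpi1 window held one, and Slc2a3 had no entry. A match is a string of letters and was not tested as a binding site.

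Cells were put into classes by UMIs of lineage markers, and none of the 10 genes was a marker. A cell needed at least 3 marker UMIs, of which at least 80% came from 1 lineage. The classes are therefore microglia-like, monocyte or macrophage-like, neutrophil-like, T cell-like and choroid plexus epithelium-like, and the suffix is dropped below. Microglia markers summed to 12194 to 14227 CPM (UMIs of a gene per 1000000 UMIs of the class) in microglia and to 48.5 to 97.8 CPM in monocytes or macrophages, whose own markers summed to 5026 to 6403 CPM. Libraries held 2145 to 2532 barcodes and 8301228 to 10359526 UMIs. Of 5571 distinct barcodes, 924 occurred in more than 1 library, with a median 15.7 times more UMIs in the deepest copy than in the next. Cells with such barcodes were left out, which left 3478 cells. This took 424, 824 and 802 barcodes that passed the filters from Vehicle 2, Niacin 1 and Niacin 2. The deepest copies had a median of 11182 UMIs against 3157 in the cells kept, so many deep cells are missing from the sums. The vehicle library stood apart, with a median of 8.85% mitochondrial UMIs per barcode against 3.08% and 3.29%, and with 37.4% of its cells in no class against 13.4% and 13.7%. Vehicle 2, Niacin 1 and Niacin 2 gave 332, 616 and 875 microglia, 153, 34 and 39 monocytes or macrophages, 52, 32 and 26 neutrophils, 80, 70 and 99 T cells, and 26, 44 and 89 choroid plexus cells. Values below are given in that library order, as CPM of all UMIs of a class in a library. A CPM is a share of the RNA of a class, so more of a gene and less of the other RNA cannot be told apart. Mean ± SD covers the 3 libraries, of both treatments. Levels were compared between classes and never between genes, because no value was adjusted for length.

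Class differences were tested on the sums with edgeR's quasi-likelihood test, with the library as a block and Benjamini-Hochberg adjustment over 6531 genes. Fold changes are log2 ± SE from that fit, and a call is an adjusted p under 0.05. Among the 10 genes, 7 were higher and 1 was lower in monocytes or macrophages than in microglia, where 19.5% of all genes tested were higher and 23.0% lower (42.4% in either direction). In neutrophils 6 were higher and 2 lower than in microglia, against 19.0% and 31.0% of all genes (50.1% in either direction). In T cells 6 were higher and 1 lower, against 22.4% and 26.9% (49.3%). In choroid plexus cells 6 were higher and 1 lower, against 25.8% and 39.7% (65.5%). The median log2 fold change of the 10 genes over microglia was 1.48 in monocytes or macrophages, 1.61 in neutrophils, 1.201 in T cells and 2.10 in choroid plexus cells. The corresponding medians over all genes were -0.16, -0.49, -0.06 and -0.62. Hk2 was called lower than in microglia in each of the 4 classes, although in monocytes or macrophages it was lower in 2 of 3 libraries and the call was lost in 5 of 18 alternatives.

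**Figure D1:**
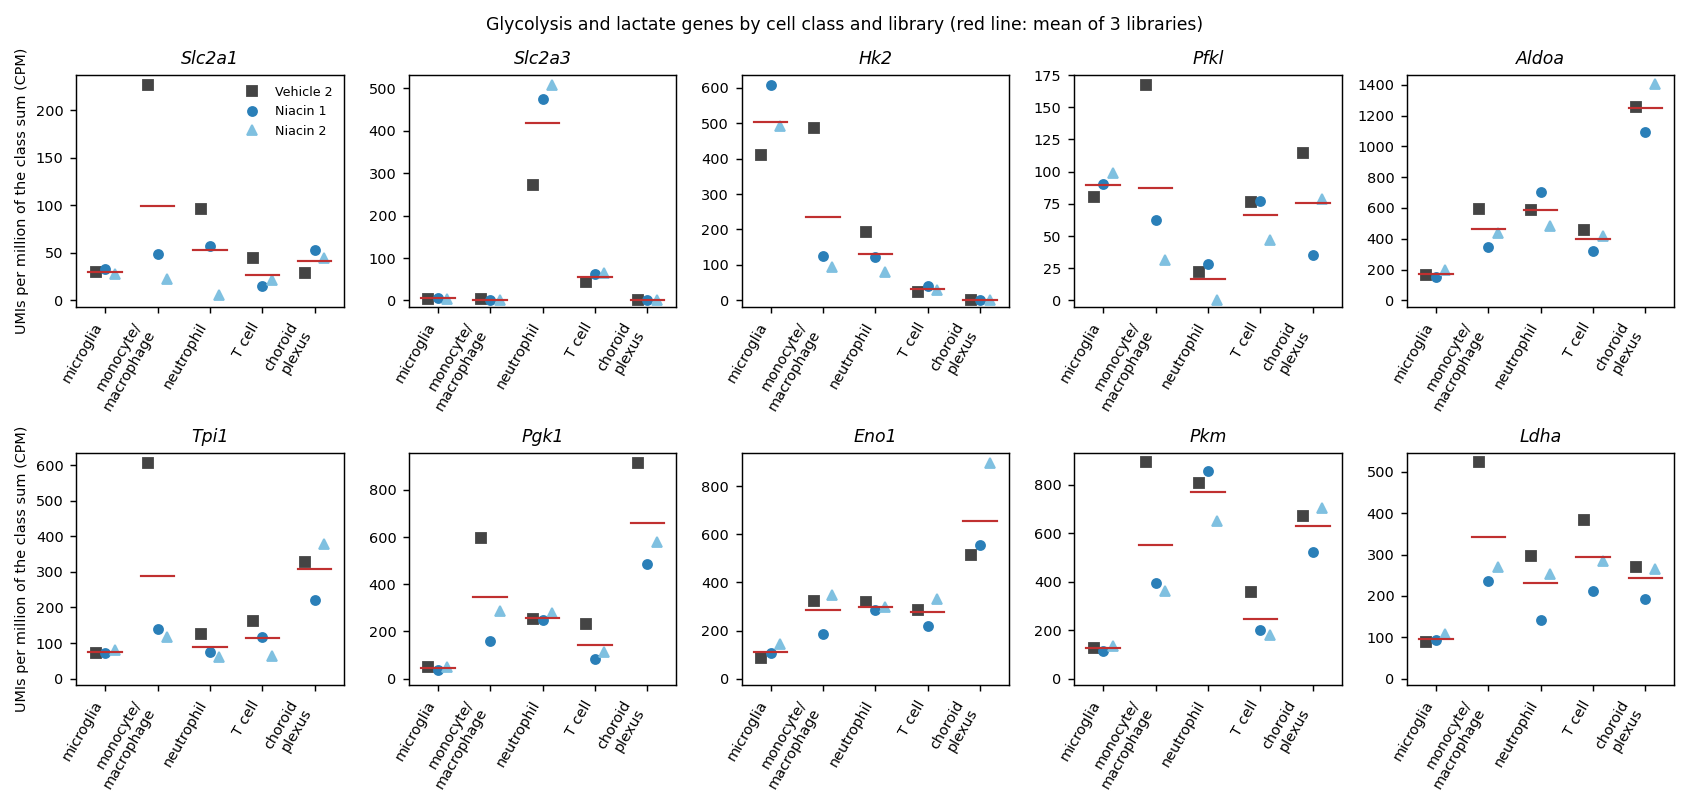
Level of each of the 10 genes in CPM (y axis, 1 panel per gene, axes starting at 0) by cell class (x axis) and library (points). Hk2 is high in microglia and near 0 in choroid plexus cells, Slc2a3 is high in neutrophils, and the vehicle point stands above both niacin points in monocytes or macrophages by at least 1.5-fold for 7 of the 9 genes with a mean of at least 50 CPM there.

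Slc2a1 encodes GLUT1, the widely expressed glucose transporter. It measured 29.4, 32.8 and 28.2 CPM in microglia, 227, 48.5 and 22.4 CPM in monocytes or macrophages, 96.0, 57.1 and 6.19 CPM in neutrophils, 44.4, 14.7 and 21.7 CPM in T cells, and 28.5, 52.7 and 44.2 CPM in choroid plexus cells. Microglia were even across libraries, and the monocyte or macrophage values lay on both sides of them. The difference between these classes was 1.57 ± 0.47 (edgeR adjusted p = 0.0101), higher in 2 of 3 libraries. It was 0.05 (edgeR adjusted p = 0.967) without the vehicle library, 1.17 (adjusted p = 0.057) with shared barcodes kept in their deepest library and short of the threshold in DESeq2 (adjusted p = 0.1), and over 18 alternatives its adjusted p ran from 0.000138 to 0.967. Slc2a1 passed the threshold in no other class, but in choroid plexus cells (0.99 ± 0.55, adjusted p = 0.123) 3 of 18 alternatives called it, among them the fit without the vehicle library (1.24, adjusted p = 0.00473). When levels were ordered, every neighbouring pair of classes overlapped.

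Slc2a3 encodes GLUT3, a transporter with high affinity for glucose. Neutrophils held 273, 475 and 507 CPM (419 ± 127, SD, n = 3) and T cells 42.3, 62.4 and 63.5 CPM. Microglia held 4.48, 5.38 and 4.25 CPM. Monocytes or macrophages gave 2 UMIs among 1103968, and choroid plexus cells gave none among 718605. Neutrophils, T cells and microglia thus lay in that order with no overlap of libraries. The gene was 6.80 ± 0.37 higher on the log2 scale in neutrophils than in microglia (edgeR adjusted p = 1.79e-11) and 3.72 ± 0.38 higher in T cells (edgeR adjusted p = 7.71e-08), in 3 of 3 libraries each. Choroid plexus cells missed the threshold against microglia (adjusted p = 0.0598) but were called lower with all barcodes kept (adjusted p = 0.00187), with shared barcodes in their deepest library (adjusted p = 0.00541) and with library size scaling (adjusted p = 0.0246). From pooled UMIs its level in neutrophils was 232 times that in monocytes or macrophages (95% counting interval 63.2 to 1931) and at least 100.7-fold higher than in choroid plexus cells, with 3 counts over that class as the limit (lower end of the 95% counting interval 81.0). All intervals in this text cover counting error only.

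After each cell was thinned to 2000 UMIs, with shallower cells left out, a Slc2a3 UMI was seen in 13 of 32, 11 of 20 and 13 of 24 neutrophils (40.6, 55.0 and 54.2%). It was seen in 0%, 1.14% and 1.21% of microglia and in 0 of 102, 0 of 24 and 0 of 31 monocytes or macrophages. The last 3 counts allow shares of cells with a UMI of up to 3.55, 14.2 and 11.2% (exact binomial), which do not limit the share of cells that express the gene. Unthinned, the neutrophil shares were 46.2, 59.4 and 92.3% at median depths of 2473 to 6152.5 UMIs, and those of microglia 2.11, 1.95 and 1.6% at 3207 to 4197 UMIs. At equal depth the share of cells with a UMI was thus higher in neutrophils than in microglia in each library.

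Hk2 encodes hexokinase 2, which phosphorylates glucose and can sit on the outer mitochondrial membrane. Microglia held 410, 607 and 491 CPM (503 ± 98.9, SD, n = 3). Monocytes or macrophages held 488, 125 and 94.1 CPM, neutrophils 192, 124 and 80.5 CPM, and T cells 23.2, 40.4 and 30.1 CPM. Choroid plexus cells held 1 UMI in all. Microglia lay above neutrophils, T cells and choroid plexus cells in every library, while the vehicle monocytes or macrophages lay within the range of microglia. The log2 fold change over microglia was -1.78 ± 0.46 in neutrophils (edgeR adjusted p = 0.00289) and -3.95 ± 0.48 in T cells (adjusted p = 4.24e-07). In choroid plexus cells it was called at adjusted p = 5.75e-08, and from pooled UMIs the microglia level was 365 times that of choroid plexus cells (95% counting interval 65.5 to 14434). In monocytes or macrophages the fold change was -1.26 ± 0.42 (edgeR adjusted p = 0.0201), lower in 2 of 3 libraries. It missed the threshold without Niacin 1 (-0.64, adjusted p = 0.372), without Niacin 2 (-0.77, adjusted p = 0.306), without the library block (adjusted p = 0.068), with only both classes in the fit (adjusted p = 0.101) and in DESeq2 (adjusted p = 0.0589), and over 18 alternatives its adjusted p ran from 6.08e-17 to 0.372.

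At 2000 UMIs per cell, 50.2, 67.4 and 56.3% of microglia held a Hk2 UMI (112 of 223, 296 of 439 and 325 of 577). Choroid plexus cells, from the same droplet suspensions, held one in 0 of 26, 0 of 41 and 1 of 81 cells. Unthinned shares in microglia were 67.8, 78.3 and 74.5%, and in choroid plexus cells 0, 0 and 1.12% at median depths of 3589.5 to 4704 UMIs. In monocytes or macrophages 54.9% of vehicle cells but 1 of 24 (4.17%) and 7 of 31 (22.6%) niacin cells held one. A Hk2 UMI was thus seen in 50.2 to 67.4% of microglia at 2000 UMIs. This share depends on depth, with a mean over the 3 libraries of 41.0% at 1000 UMIs.

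Pfkl encodes the liver-type subunit of phosphofructokinase, which commits sugar to the pathway. Its values were 79.9, 90.2 and 98.8 CPM in microglia and 22.2, 28.5 and 0 CPM in neutrophils, which did not overlap. It was lower in neutrophils (-2.40 ± 0.70, edgeR adjusted p = 0.00681), a call lost without Niacin 2 (adjusted p = 0.0541). The neutrophil values were 3 UMIs or fewer in each library, so this call rests on few counts. Monocytes or macrophages held 167, 62.3 and 31.4 CPM, T cells 76.1, 77.1 and 46.8 CPM and choroid plexus cells 114, 35.1 and 78.5 CPM, and none of these passed the test against microglia. Without the vehicle library, monocytes or macrophages were lower by the test (-1.19, adjusted p = 0.00829).

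The 3 enzymes that follow were called higher in choroid plexus cells. Aldoa, the aldolase that splits the 6-carbon sugar, held 162, 149 and 194 CPM in microglia and 1255, 1094 and 1404 CPM in choroid plexus cells. Neutrophils held 584, 704 and 483 CPM, monocytes or macrophages 596, 346 and 439 CPM and T cells 456, 319 and 416 CPM. Microglia were lowest in each library and choroid plexus cells were highest, with no overlap with the class next in order. Its log2 fold change over microglia was 3.33 ± 0.28 in choroid plexus cells (adjusted p = 1.22e-09), 2.10 ± 0.27 in neutrophils (adjusted p = 1.57e-06), 1.39 ± 0.26 in monocytes or macrophages (adjusted p = 0.000194) and 1.35 ± 0.26 in T cells (adjusted p = 0.000155), all edgeR adjusted.

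Tpi1, the isomerase that interconverts both triose phosphates, held 71.0, 73.1 and 79.96 CPM in microglia, 328, 222 and 378 CPM in choroid plexus cells and 607, 138 and 116 CPM in monocytes or macrophages. Both of these classes lay above microglia in each library. The log2 fold change was 2.49 ± 0.41 in choroid plexus cells (edgeR adjusted p = 2.08e-05) and 1.71 ± 0.42 in monocytes or macrophages (adjusted p = 0.00219). The second rested on the vehicle library, since it was 0.62 (adjusted p = 0.083) without it, the highest p over 18 alternatives. Neutrophils held 126, 76.1 and 61.9 CPM and T cells 163, 117 and 65.1 CPM, and neither passed the test, although T cells did with only both classes in the fit (0.69, adjusted p = 0.00858).

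Pgk1, the kinase of the first ATP-forming step, held 48.6, 35.9 and 49.9 CPM in microglia (44.8 ± 7.75, SD, n = 3). Choroid plexus cells held 913, 486 and 579 CPM, monocytes or macrophages 598, 159 and 287 CPM, neutrophils 251.2, 247 and 278 CPM and T cells 232, 84.4 and 112 CPM. Every library of each of these classes lay above every library of microglia. The log2 fold change was 4.25 ± 0.36 in choroid plexus cells (edgeR adjusted p = 1.8e-09), the highest of the 10 genes in that class. It was 2.79 ± 0.35 in monocytes or macrophages (adjusted p = 1.18e-06), 2.86 ± 0.37 in neutrophils (adjusted p = 1.41e-06) and 1.69 ± 0.35 in T cells (adjusted p = 0.000301). At 2000 UMIs, 69.2, 61.0 and 66.7% of choroid plexus cells held a Pgk1 UMI against 8.97, 6.61 and 8.67% of microglia (unthinned 96.2, 86.4 and 84.3% against 16.9, 10.9 and 16.5%).

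Eno1, which forms phosphoenolpyruvate, held 87.0, 106 and 145 CPM in microglia, 514, 556 and 898 CPM in choroid plexus cells, 323, 187 and 349 CPM in monocytes or macrophages, 318, 285 and 297 CPM in neutrophils and 285, 220 and 332 CPM in T cells. Microglia lay below the other 4 classes in each library. The log2 fold change was 2.97 ± 0.28, 1.30 ± 0.27, 1.72 ± 0.29 and 1.43 ± 0.27 in that order, with edgeR adjusted p from 8.35e-09 to 0.000534. These values are uncertain, because 60.04% of 91-base windows in the last 500 bases of Eno1 transcripts also occur in Eno1b, a near-identical gene that the tables count and that held 0 to 7.39 CPM in these classes. For the other 9 genes the share of windows shared with any other gene was at most 2.56%.

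Pkm encodes the muscle-type pyruvate kinase. It held 127, 114 and 134 CPM in microglia, 892, 395 and 363 CPM in monocytes or macrophages, 805, 856 and 650 CPM in neutrophils, 670, 521 and 702 CPM in choroid plexus cells and 359, 202 and 182 CPM in T cells. No library of another class reached down to the range of microglia. The log2 fold change was 2.92 ± 0.33 in neutrophils (edgeR adjusted p = 1.93e-07), 2.77 ± 0.32 in choroid plexus cells (adjusted p = 1.69e-07), 2.02 ± 0.32 in monocytes or macrophages (adjusted p = 2.17e-05) and 1.05 ± 0.31 in T cells (adjusted p = 0.00754).

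Ldha, the lactate dehydrogenase subunit that favours lactate, held 89.5, 93.8 and 108 CPM in microglia (97.1 ± 9.75, SD, n = 3). It held 524, 235 and 269 CPM in monocytes or macrophages, 382, 213 and 284 CPM in T cells, 271, 193 and 265 CPM in choroid plexus cells and 296, 143 and 254 CPM in neutrophils. The last 4 classes overlapped among themselves and lay above microglia. The log2 fold change was 1.70 ± 0.30, 1.65 ± 0.30, 1.72 ± 0.31 and 1.501 ± 0.32 in that order, with edgeR adjusted p from 5.24e-05 to 0.00061. A Ldha UMI was seen at 2000 UMIs in 55.9, 45.8 and 38.7% of monocytes or macrophages and in 13.9, 13.9 and 20.5% of microglia (unthinned 60.8, 55.9 and 69.2% against 29.2, 25.0 and 32.0%).

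**Figure D2:**
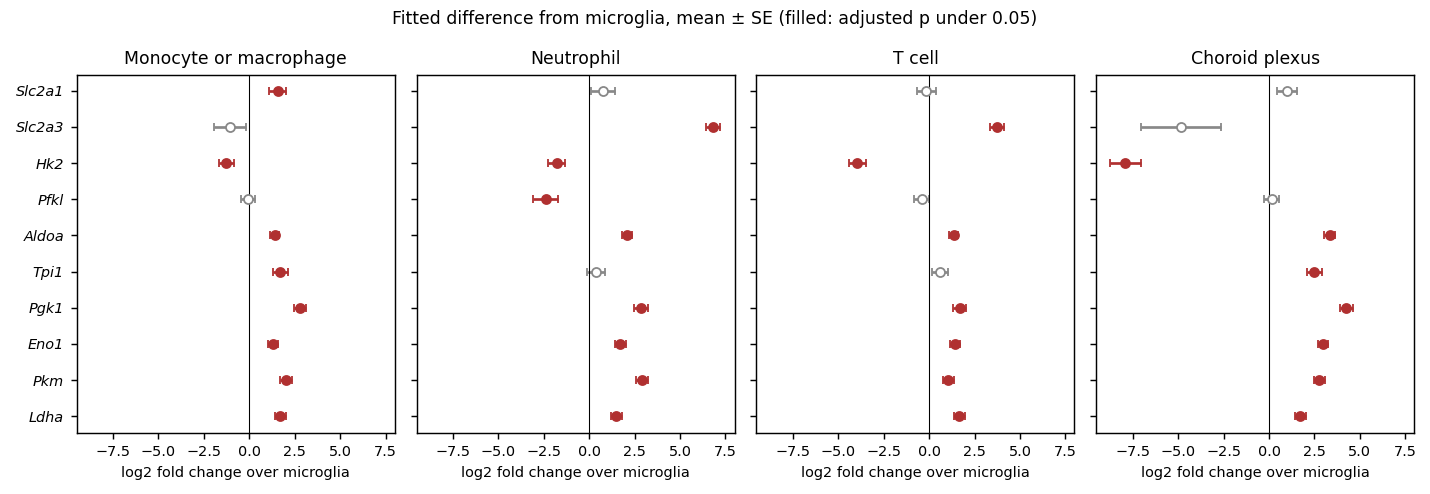
Log2 fold change of each gene over microglia (x axis) with its SE as bars, in monocytes or macrophages, neutrophils, T cells and choroid plexus cells (4 panels), from the edgeR fit with the library as a block. Aldoa, Pgk1, Eno1, Pkm and Ldha lie above 0 in all 4 panels and Hk2 lies below 0 in all 4. The low-count points of Slc2a3 and Hk2 in choroid plexus cells are no bound on their fold.

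Summed over the 10 genes, microglia held 1109, 1307 and 1334 CPM (1250 ± 123, SD, n = 3), and 699, 700 and 843 CPM without Hk2. The sum was 4425, 1696 and 1971 CPM in monocytes or macrophages, 2962, 2995 and 2618 CPM in neutrophils, 2064, 1350 and 1553 CPM in T cells and 4094, 3160 and 4351 CPM in choroid plexus cells. Among these 5 classes, microglia had the lowest sum in each library. Choroid plexus cells had the highest of them in Niacin 1 and Niacin 2, and monocytes or macrophages in Vehicle 2. Outside these classes, B cells (938, 910 and 832 CPM) and natural killer cells (941, 526 and 1259 CPM) held less than microglia in each library. Basophil or mast cells (1093, 1614 and 1200 CPM) held more in Niacin 1 only. Each of these had fewer than 10 cells in a library. At 2000 UMIs the median cell held 2 UMIs of the 10 genes in microglia of each library, 8.5, 6 and 7 in choroid plexus cells, 6, 3.5 and 4 in monocytes or macrophages, 4.5, 7 and 5 in neutrophils and 3, 2 and 3 in T cells. The ranges of single cells overlapped widely, with a highest count of 13 UMIs in microglia and 28 in choroid plexus cells.

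**Figure D3:**
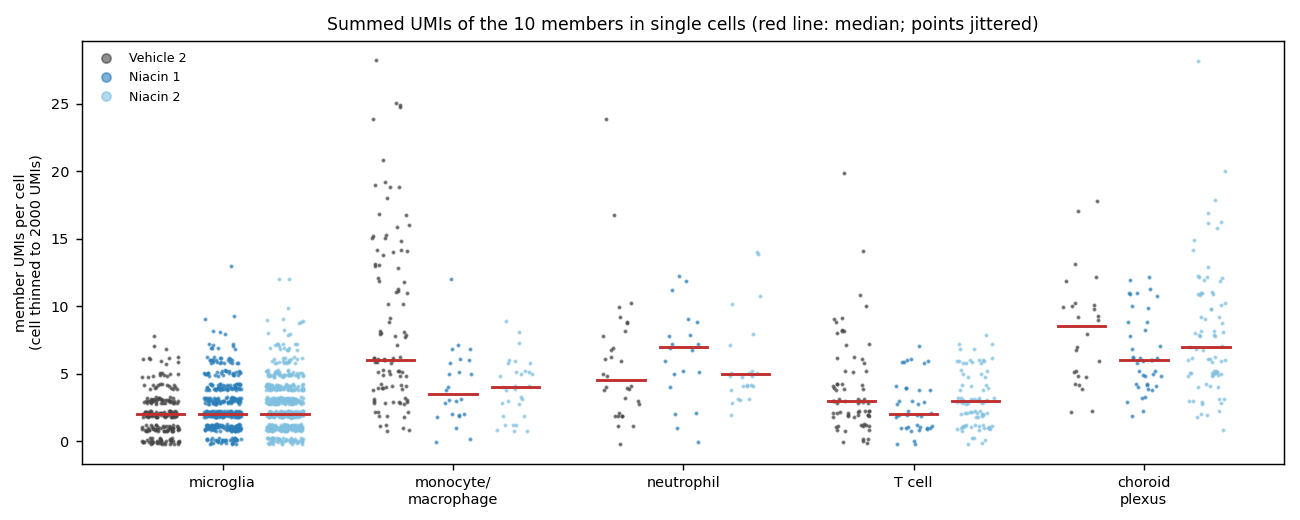
UMIs of the 10 genes per cell after thinning each cell to 2000 UMIs (y axis) by class and library (x axis), 1 point per cell with the median as a line. Cells are no replicates and no test was made on them. Microglia have a median of 2 in each library and choroid plexus cells medians of 6 to 8.5.

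In neutrophils against monocytes or macrophages, 2 of the 10 genes were higher and 1 lower, where 11.9% of all genes were higher and 16% lower (27.9% in either direction), so the share called among the 10 was near that of all genes. Slc2a3 was higher in 3 of 3 libraries (edgeR adjusted p = 2.99e-09). Pkm was higher by 0.90 ± 0.32 (adjusted p = 0.0382) in 2 of 3 libraries, and this call was lost in 8 of the 18 alternatives (adjusted p 0.0538 to 0.417). Pfkl was lower (-2.32 ± 0.73, adjusted p = 0.0207) but not without the vehicle library (adjusted p = 0.251). The Pfkl call rests on 3 UMIs or fewer per library in neutrophils. Aldoa (0.71 ± 0.27, adjusted p = 0.0544) and Tpi1 (-1.33 ± 0.50, adjusted p = 0.0503) lay next to the threshold, and 7 and 6 of the 18 alternatives called them. Among these were both settings that keep shared barcodes, with adjusted p = 0.023 and adjusted p = 0.0384 for Aldoa and adjusted p = 0.00785 and adjusted p = 0.0463 for Tpi1. Without the vehicle library Aldoa was called (1.12, adjusted p = 0.000123) and Tpi1 was not (-0.32, adjusted p = 0.647).

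Niacin was compared with vehicle class by class, without a test. A gene was counted where both niacin libraries lay at least 1.5-fold above or below the vehicle library, among genes with a mean of at least 50 CPM in the class. In monocytes or macrophages 7 of 9 such genes were lower and none was higher, where 14.8% of all genes were lower and 16.7% higher. Slc2a1 and Pfkl, both among the 7, reached a mean of 50 CPM there only with their vehicle values. In microglia 0 of 7 were lower and 0 of 7 higher, against 7.54% and 4.12% of all genes.

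In monocytes or macrophages the mean of the niacin libraries relative to vehicle was -2.68 on the log2 scale for Slc2a1, -2.16 for Hk2, -1.83 for Pfkl, -2.25 for Tpi1, -1.42 for Pgk1, -1.24 for Pkm and -1.06 for Ldha. These 7 genes were lower in both niacin libraries than in the vehicle library. Aldoa was at -0.60 and Eno1 at -0.27, and neither passed 1.5-fold in both libraries. The niacin libraries rested on 34 and 39 such cells with median depths of 3973.5 and 6587 UMIs, and the vehicle library on 153 cells with a median of 2570. The count was 7 with only cells of at least 2000 UMIs and 7 with cells of at most 10% mitochondrial UMIs, and it was 8 with shared barcodes kept in their deepest library. The part of the higher mitochondrial share of the vehicle library in this difference was not tested beyond that.

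Arg1, which encodes arginase 1 and marks a myeloid state, moved with the same split. It was seen in 30 of 153 vehicle monocytes or macrophages (19.6%) and in 0 of 34 and 0 of 39 niacin ones. The Arg1-positive cells held 6192 CPM of the 10 genes summed (95% counting interval 5842 to 6558) and the other vehicle cells 3817 CPM (3655 to 3984), with median depths of 6387 and 2444 UMIs. The niacin libraries held 1696 and 1971 CPM. An absent Arg1 UMI does not show that a cell lacks Arg1, least of all in the shallower cells. In cells of at least 2000 UMIs the sums were 6188 and 3994 CPM in vehicle cells with and without an Arg1 UMI, and 1755 and 2034 CPM in the niacin libraries. Between Arg1-positive and Arg1-negative vehicle cells, Pgk1 stood at 1020 and 453 CPM, Ldha at 855 and 411 CPM, Tpi1 at 945 and 491 CPM, and Aldoa at 855 and 507 CPM. Hk2, at 494 and 485 CPM, and Slc2a1, at 255 and 217 CPM, were within each other's counting intervals. With the Arg1-positive cells left out, 7 of 9 genes were at least 1.5-fold lower in both niacin libraries. The part of Arg1-expressing cells without a UMI in that count was not tested.

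**Figure D4:**
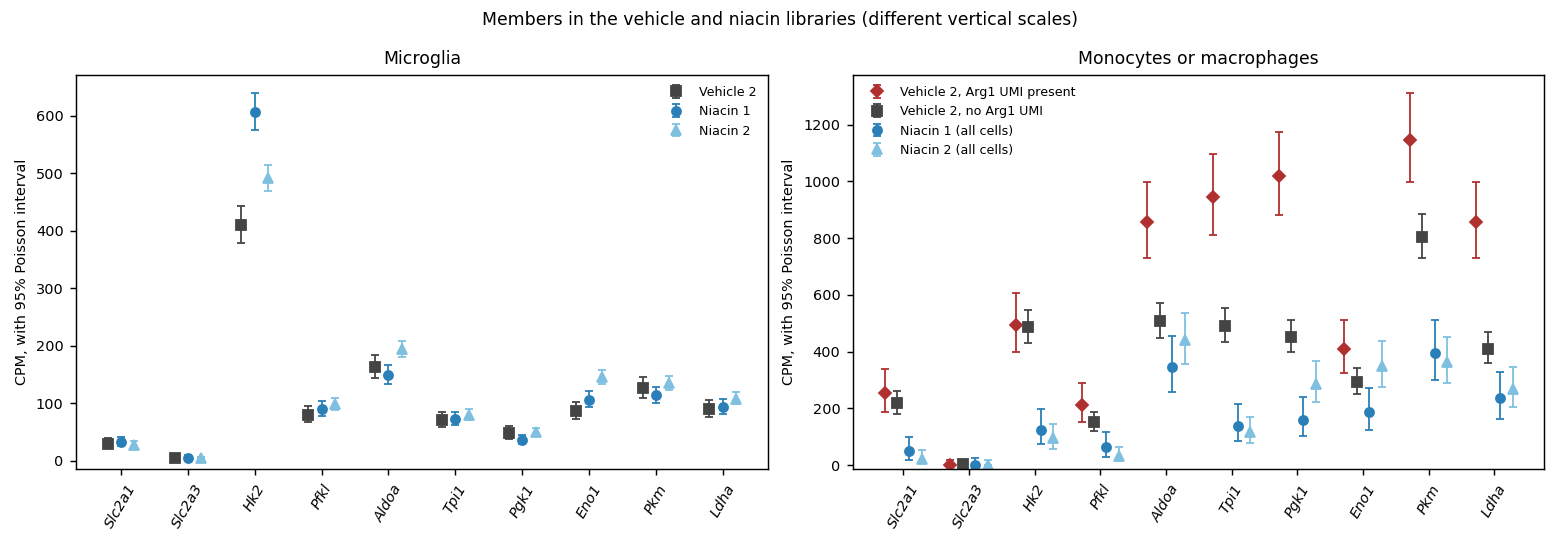
CPM of the 10 genes (y axis, starting at 0) in microglia, and in monocytes or macrophages with vehicle cells split by Arg1, by library (points). In microglia no gene lies at least 1.5-fold above or below vehicle in both niacin libraries, and in monocytes or macrophages vehicle cells with and without Arg1 lie above both niacin libraries for Slc2a1, Hk2, Pfkl, Tpi1, Pgk1, Pkm and Ldha.

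In microglia the niacin mean relative to vehicle was 0.42 on the log2 scale for Hk2 and 0.53 for Eno1, and for the other 5 genes of at least 50 CPM it lay between -0.03 and 0.24. Vehicle was lowest for Hk2, with 410 CPM against 607 and 491 CPM, a gap to the nearer library that was smaller than that between both niacin libraries. In neutrophils Slc2a3 was higher (0.85) and Slc2a1, Hk2 and Tpi1 were lower by the same 1.5-fold rule, among 9 genes, where 7.54% of all genes were higher and 32.3% lower. The 7 neutrophil markers moved with this split, at 22643 CPM in sum in Vehicle 2 and 37524 and 65773 CPM in the niacin libraries, and their part in these differences was not tested. Slc2a1 reached 50 CPM in neutrophils only with its vehicle value. In T cells Pgk1 (-1.24) and Pkm (-0.90) were lower and none was higher among 8 genes, against 17.5% lower and 6.32% higher among all genes. In choroid plexus cells Pgk1 (-0.78) was lower and none was higher among 7, against 22.3% and 12.2%. The shares in the last 3 classes stood near those of all genes.

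Hk2 in microglia also moved with depth. Cells under 2000 UMIs held 509, 990 and 850 CPM of Hk2, and deeper cells held 400, 562 and 452 CPM. Malat1, a long RNA that stays in the nucleus, moved alongside, at 65657, 133201 and 121691 CPM in the shallow and 40127, 68485 and 53622 CPM in the deep cells. Aldoa went the other way, at 126, 77.1 and 83.1 CPM in shallow and 166, 158 and 207 CPM in deep cells. The part of RNA quality in these levels was not tested.

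Cycling microglia, with at least 3 UMIs of 12 cell-cycle markers and at least 2000 UMIs, numbered 16, 9 and 33 cells against 145, 342 and 365 other microglia. None of the 9 genes tested passed the threshold by edgeR, where 0.131% of 6847 genes were higher and 0.0876% lower (0.219% in either direction). The 1 nearest to it was Pgk1, with 1.34 ± 0.36 (edgeR adjusted p = 0.0695) in 3 of 3 libraries. It was called with shared barcodes kept in their deepest library (1.05, adjusted p = 0.00457).

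B cells were too few, at 8, 22 and 37, for the design, and were compared only with shared barcodes kept in the deepest library, which gave 10, 24 and 37 cells. Against microglia only Hk2 differed, at 0, 16.5 and 5.36 CPM (edgeR adjusted p = 2.7e-07), where 10.3% of 9292 genes were higher and 21.5% lower. Against T cells, Slc2a3, Aldoa, Pgk1, Eno1, Pkm and Ldha were lower and none was higher, where 7.0% of genes were lower and 3.85% higher. B and T cells were thus called different in 6 of the 10 genes, with edgeR adjusted p from 0.0229 to 0.0496. These calls lay close to the threshold, and no alternative to this fit was run.

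Other genes around the pathway, from lists of its branches and of hypoxia genes, are given here for monocytes or macrophages against microglia. The counts stand against 19.5% of all genes higher and 23.0% lower in that comparison. Of 9 other glycolysis genes tested, 5 were higher and none lower. Among them were Pfkp, the platelet-type phosphofructokinase subunit (5.46, edgeR adjusted p = 2.39e-09), Eno3, an enolase best known from muscle (4.38, adjusted p = 1.94e-07), and Gpi1, the isomerase after hexokinase (1.58, adjusted p = 0.00108). Pfkp followed the split between libraries, with 397, 76.2 and 116 CPM in monocytes or macrophages, whereas Eno3 went against it with 47.5, 402 and 533 CPM.

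Of 3 other glucose transporters tested, Slc2a6 was higher (4.04, adjusted p = 1.83e-05) and Slc2a5, which carries fructose, was lower in monocytes or macrophages (edgeR adjusted p = 1.43e-09), with 387, 337 and 340 CPM in microglia against 4.07, 0 and 0 CPM. Of 11 genes of pyruvate and lactate handling, 3 were higher and 4 lower, beside 19.5% and 23.0% of all genes. Slc16a3, the lactate exporter MCT4, was higher (2.25, adjusted p = 1.19e-05) at 287, 277 and 157 CPM against 45.4, 50.3 and 42.2 CPM. Ldhb, the subunit that favours pyruvate, was lower (-4.65, adjusted p = 5.52e-09) at 10.9, 13.8 and 4.48 CPM against 203, 256 and 359 CPM. Mpc1, of the mitochondrial pyruvate carrier, was lower as well (-1.72, adjusted p = 0.000458), as was Pdk1 (-1.14, edgeR adjusted p = 0.0128). Pdk3 (1.81, edgeR adjusted p = 0.00336) and Pdha1 (1.51, edgeR adjusted p = 0.000739) of the same list were higher. Ldha and Ldhb thus differed in opposite directions between these classes.

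In the pentose phosphate list 4 of 7 genes were higher and none lower, again beside 19.5% and 23.0% of all genes, with Tkt at 1.84 (adjusted p = 0.000148) and Taldo1 at 1.72 (adjusted p = 2.81e-05), both of the branch that returns sugars to glycolysis. Of 14 citrate cycle genes, Cs, citrate synthase, was higher (0.97, adjusted p = 0.0421) and Suclg2, a subunit of succinyl-CoA ligase, was lower (-1.52, adjusted p = 0.00883). Of 15 genes of a hypoxia list, 6 were higher and none lower. Among them were Bhlhe40, a transcriptional repressor, at 6.01 (adjusted p = 4.63e-09) and Plin2, a lipid droplet coat protein, at 2.80 (adjusted p = 2.62e-08). Of these 6 calls, only Bhlhe40 and Plin2 were higher in all 3 libraries. In choroid plexus cells, 12 of the 14 citrate cycle genes were higher than in microglia and none lower, against 25.8% and 39.7% of all genes, and Ldhb stood at 813, 1223 and 1303 CPM. In that class 5 of 9 other glycolysis genes were higher and 3 lower, and 7 of 11 genes of pyruvate and lactate handling were higher and 3 lower.

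The gene whose level followed the 10 genes most closely was Pgam1, the mutase between Pgk1 and Eno1, with a Pearson correlation of 0.943 over the 15 sums of class and library among 3395 genes. Tax1bp1 (0.840), Id1 (0.827), Gpi1 (0.826) and Calm3 (0.818) came next. These sums share libraries and classes, and the correlations are a description.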

How the data were processed

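The submitters' processing notes name Cell Ranger 3.1, STAR and the build mm10. The authors deposited UMI counts per gene and barcode for 3 libraries, made with a 3′ kit read to 91 bases. Replicate cultures or animals cannot be separated, because each library is a pool. With the library as a block, p-values set a class difference against its variation between pools, not against the spread between animals. The 3 pools span both treatments, so that variation includes any niacin difference that is specific to a class.

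Barcodes with at least 200 genes and at most 20% mitochondrial UMIs were kept, and those present in more than 1 library were left out. Cells were classed by 107 markers in 18 lists, at least 3 marker UMIs and 80% from 1 list. Scrublet called 6 cells (0.173%), too few to have worked, so no doublets were removed. UMI counts were summed per class and library and tested with edgeR 4.0.16 (R 4.3.3), TMM scaling, its default expression filter and the library as a block, in 1 fit of 5 classes. The SE was derived from the fold change and the F statistic. Sums of the same library come from the same pool, which is the pairing. Classes needed 10 cells in each library. That rule was not applied to cycling microglia, with 9 cells in Niacin 1, or 1 cell where 5 cycling UMIs were asked for. DESeq2 1.42.0, other scalings, filters and markers, and leaving out each library were alternatives. The test was checked on simulated counts with 200 genes changed by 1.5 on the log2 scale. It recovered 50.5 to 82% of them, and 3.81 to 6.29% of its calls were false. The simulated classes shared 1 profile and had no library effect, so the check does not give error rates for these data. The members and lists were chosen with earlier results of these data known. The 10 genes are named throughout. From each pathway list, up to 3 genes per direction could be named, those with the highest absolute log2 fold change among calls in monocytes or macrophages against microglia with 1 direction in all 3 libraries. Likeness was Pearson's correlation of log2(CPM + 10) over genes of at least 50 CPM. Positions are GRCm38 (GENCODE M21), promoters RefSeq (GRCm38.p6).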

Additional observations from a re-analysis of the deposited data

Results flagged for a closer look

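Directions were set side by side for the 7 genes with a mean of at least 50 CPM in both microglia and monocytes or macrophages. For 4 of them both niacin libraries lay above the vehicle library in microglia and below it in monocytes or macrophages. A gap of any size counted, and the share of all genes with such opposite directions was not computed. The log2 ratio of the niacin mean to vehicle in microglia exceeded that in monocytes or macrophages by 2.58 for Hk2, 2.08 for Pfkl, 2.36 for Tpi1 and 1.23 for Ldha. Most of each difference lay in monocytes or macrophages, where Hk2 was at 488 CPM in vehicle and at 125 and 94.1 CPM in the niacin libraries, and Tpi1 at 607 CPM against 138 and 116 CPM. In microglia Tpi1 was at 71.0, 73.1 and 79.96 CPM and Ldha at 89.5, 93.8 and 108 CPM. The difference was not tested, since there was 1 vehicle library.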

How the results depend on the processing

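Over all class comparisons and alternatives, 892 log2 fold changes of the 10 genes kept their direction and their side of the threshold, 19 lost the call, 24 gained one and 30 changed sign. All sign changes were in values not past the threshold. The causes were not tested.

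The count of genes past the threshold moved from 2771 to 4842 (all barcodes) and 4326 (shared barcodes in their deepest library) for monocytes or macrophages against microglia, and ran from 1825 to 2757 when each library was left out. For neutrophils against microglia it moved from 3269 to 5096 (all barcodes), with 2152 to 3199 without a library. For T cells it moved from 3221 to 4957 when only both classes were fitted, with 2278 to 3370 without a library. For choroid plexus cells it moved from 4277 to 6588 (all barcodes) and 6516 (no filter), with 3292 to 4284 without a library. For neutrophils against monocytes or macrophages it moved from 1824 to 3282 (all barcodes), 2937 (deepest library) and 832 (only both classes), with 945 to 1860 without a library, and the count among the 10 genes moved from 3 to 5, 5 and 1, with 2 to 4. For cycling against other microglia it moved from 15 to 2 (DESeq2), 25 (no filter), 83 (all barcodes), 85 (deepest library) and 9 (5 cycling UMIs), with 11 to 37 without a library, and among the 10 genes from 0 to 1 with all barcodes and 1 with the deepest library.

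Without the library as a block, which pairs the classes of a pool, the calls for cycling microglia moved to 2, and monocytes or macrophages against microglia gave 2402 genes and 7 of the 10. No paired analysis of niacin against vehicle was possible, because the groups share only the replicate number 2, which stands for a different pool in each.

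With niacin, neutrophils moved from 1 gene higher to 0 (all barcodes) and 0 (deepest library), and from 3 lower to 1 (90% of marker UMIs), 1 (at most 10% mitochondrial UMIs) and 0 (without the highest 5% of doublet scores). T cells moved from 0 higher to 1 without mitochondrial and ribosomal genes (0 to 1 without a library), and from 2 lower to 3 to 4 without a library. Choroid plexus cells moved from 1 lower to 0 (all barcodes), 0 (deepest library), 2 (90% of marker UMIs) and 2 (doublet scores), with 1 to 2 lower and 0 to 1 higher without a library. Microglia had 0 to 1 higher without a library. The mean share of cells with a UMI at 1000 and 4000 UMIs was 41.0 and 78.9% for Hk2 in microglia, 22.9 and 71.8% for Ldha in monocytes or macrophages and 35.5 and 81.2% for Slc2a3 in neutrophils (35.9% with all barcodes).

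Of the log2 fold changes that changed sign, Pfkl in monocytes or macrophages became 0.043 (no library block) and 0.088 (only both classes), and ran from -1.19 to 0.47 without a library. Slc2a1 in T cells became 0.034 (only both classes) and ran from -0.48 to 0.17 without a library, and Pfkl in choroid plexus cells became -0.29 (library size scaling) and -0.076 (no filter). In neutrophils against monocytes or macrophages, values without a library ran from -1.17 to 0.23 for Slc2a1, from -0.88 to 0.42 for Hk2, from -0.33 to 0.79 for Pgk1 and from -0.69 to 0.28 for Ldha, each highest without the vehicle library. There Pgk1 became -0.11 (10% mitochondrial UMIs), -0.026 (at least 2000 UMIs), -0.010 (doublet scores), -0.32 (library size), -0.14 (no filter) and -0.071 (no block), and Ldha became 0.61 (all barcodes), 0.60 (deepest library) and 0.060 (90% of marker UMIs). In cycling microglia Aldoa became 0.019 (DESeq2 size factors), 0.019 (library size), 0.044 (DESeq2), 0.039 (no block), 0.24 (all barcodes) and 0.24 (deepest library), and ran from -0.051 to 0.089 without a library, and Ldha became -0.27 (5 cycling UMIs).

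Library size scaling moved the median of all genes from -0.49 to -0.82 for neutrophils and from -0.62 to -1.06 for choroid plexus cells against microglia, and from -0.26 to -0.60 for neutrophils against monocytes or macrophages. The share of higher among called genes then moved from 38.0 to 27.7% in the first and from 42.6 to 24.9% in the last. Planned comparisons of B and natural killer cells were not run, because a library held fewer than 10 of them. The alternative without Arg1-positive cells and the B cell fit were added after seeing the data.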

Other observations

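Some genes of the hypoxia list differed between the libraries of monocytes or macrophages, and those named here were chosen after their values were seen. Hif1a, which encodes the regulated subunit of hypoxia-inducible factor, stood at 746 CPM in vehicle and at 62.3 and 108 CPM in the niacin libraries. Vegfa, the angiogenic growth factor, stood at 197 CPM in vehicle and was not seen in either niacin library, where 3 counts would be 20.8 and 13.4 CPM. Bnip3, a mitophagy receptor, stood at 231, 6.92 and 31.4 CPM. Other genes of the list did not differ in this way or were higher with niacin, such as Bhlhe40 at 292, 284 and 327 CPM, Plin2 at 217, 422 and 260 CPM and Ddit4, an mTOR inhibitor, at 58.4, 132 and 143 CPM. In microglia Hif1a was at 153, 117 and 114 CPM and Bnip3 at 25.6, 18.8 and 21.3 CPM. These values rest on 1 vehicle library and were not tested.

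Basophil or mast cells, with 4 cells in the vehicle and 31 and 35 in the niacin libraries, held Ldha at 342, 499 and 501 CPM and Eno1 at 0, 80.3 and 25.9 CPM. Natural killer cells, with 23, 3 and 5 cells, held Slc2a3 at 100 CPM in the vehicle library. The vehicle sums held only 14633 UMIs in basophil or mast cells and 49934 UMIs in natural killer cells. Their vehicle values thus rest on few counts, and 0 CPM of Eno1 does not show its absence. Neither class was tested against another.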
